A study of Mus musculus with 3 samples.

Results

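The growth factors described here are 7 secreted ligands that macrophages can release toward injured epithelium, vessels and stroma: Areg, Ereg, Hbegf, Igf1, Vegfa, Pdgfa and Pdgfb. They were taken by gene symbol from the deposited tables, where 12481 genes had a level in all 3 libraries, and each of the 7 was listed in every table. They were picked because of their levels in these libraries, so their levels and ratios are given as a description, with no test. Macrophage RNA was sequenced after sorting from lungs of mice aged 6 to 8 weeks, on a C57BL/6 background and carrying LysM-GFP, a fluorescent reporter under control of the lysozyme M gene, which marks myeloid cells in general and not macrophages alone. The groups were 0 h, 4 h and 24 h, with 1 library each, around acute lung injury from a nebulized solution of 1 mg/ml lipopolysaccharide (LPS) in saline. The sort kept GFP+ cells that lacked Ly6g, the neutrophil antigen, and carried CD64, a macrophage Fc receptor. The labels describe the LPS exposure in the same words for every group, so it is not known whether the 0 h mice inhaled LPS. The number of mice behind a library is not given, and CD11b stands in the tables' column headings but not in the sorting text.

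Amphiregulin (Areg), epiregulin (Ereg) and heparin-binding EGF-like growth factor (Hbegf) are made as membrane-anchored precursors, released by ADAM proteases and bound by the EGF receptor, whose activation drives epithelial spreading and division. IGF1 signals through the IGF1 receptor and acts on epithelial growth and on fibroblasts. VEGFA acts on endothelium through FLT1 and KDR, and in the lung it is also made by alveolar epithelium. PDGF A and B chains form dimers that draw in fibroblasts, smooth muscle cells and pericytes.

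Whole reads recovered from the deposited values came to 20379236 to 25135476 per library. Levels are normalized counts, that is reads divided by a size factor common to all genes of a library, and brackets after a fold hold a 95% interval that covers counting error only. No time point has a replicate, so no ratio has a replicate check, and the differences are between libraries. The libraries also differed in sex-linked transcripts, with Xist at 13705 reads at 0 h, then 4 at 4 h and then 1 at 24 h and Ddx3y at 4, 3994 and 2357 reads, so the sex of the mice differed between the 0 h library and the others. The macrophage genes Csf1r (29976, 40025 and 29673 normalized counts at 0, 4 and 24 h) and Cd68 (21286, 13168 and 17754) were abundant throughout. Other genes tied to the sort were less even. Itgam, which encodes CD11b, stood at 7235, 33421 and 7385, and Fcgr1, which encodes CD64, at 2479, 7237 and 2887. Lyz2, the lysozyme M gene, had only 43, 16 and 21 reads. Cell type markers differed between libraries. In all, 13 of 14 classical monocyte marker symbols were found, none at 0. They summed to 142133 normalized counts at 0 h, then 579543 at 4 h and then 123466 at 24 h. The symbol not found, Chil3, is a later name of Chi3l3, which is counted below as an alveolar macrophage marker and left out of this sum. Fn1 carried much of that sum (87223, 131482 and 25383), and the other 12 summed to 54909, 448061 and 98083. At 24 h against 0 h, 10 of the 13 were at least 2-fold higher and 2 lower (4.95% and 9.10% of all genes). The median log2 ratio of the 13 was 1.69. Ccr2, the monocyte chemokine receptor, stood at 2603, 69394 and 13826. Cd14, the most abundant marker after Fn1, was lower at 24 h than at 0 h, at 32844, 81066 and 19733. The 18 listed of 19 alveolar macrophage markers summed to 849065, 317088 and 492244, with none at 0. Chi3l3 carried most of that sum (601110, 209378 and 310123). At 4 h against 0 h, 15 of the 18 were at least 2-fold lower and 0 higher (14.3% and 15.2% of all genes). At 24 h against 0 h, 3 of the 18 were lower and 0 higher (9.10% and 4.95% of all genes). Of 14 neutrophil markers 10 had a level in all 3 libraries, summing to 5033, 39721 and 8113, and Ly6g was not listed. In bulk RNA, fewer cells of a type and less RNA per cell cannot be told apart, and the part of these marker differences in the results below was not tested.

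Areg and Ereg lie next to each other on mouse chromosome 5, and their levels were far higher at 0 h than at either later time. Promoter windows from RefSeq (build GRCm38.p6) ran from 250 bases before to 50 after a start site. They were examined for 4 of the 7 genes, Areg, Igf1, Vegfa and Pdgfa. Promoters of the other genes were not examined, so it is left open whether RefSeq has windows for them. The windows of the 3 examined genes that were lower at 24 h than at 0 h are shown. Capitals mark matches on either strand. The patterns were the cAMP response element TGACGTCA or its part TGACG, the HIF core ACGTG, the TATA box TATAAA and the NF-kappaB site. TGANTCA was marked too, a looser form of the AP-1 site in which N is any base and not only C or G.
Areg, chr5:91139349-91139648, plus strand: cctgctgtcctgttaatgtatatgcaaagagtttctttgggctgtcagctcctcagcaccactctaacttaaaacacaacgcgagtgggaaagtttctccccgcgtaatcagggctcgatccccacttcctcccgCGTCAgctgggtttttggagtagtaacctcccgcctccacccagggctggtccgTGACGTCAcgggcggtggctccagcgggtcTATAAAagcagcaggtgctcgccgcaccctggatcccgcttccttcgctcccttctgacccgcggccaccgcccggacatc
Igf1, chr10:87860861-87861160, plus strand: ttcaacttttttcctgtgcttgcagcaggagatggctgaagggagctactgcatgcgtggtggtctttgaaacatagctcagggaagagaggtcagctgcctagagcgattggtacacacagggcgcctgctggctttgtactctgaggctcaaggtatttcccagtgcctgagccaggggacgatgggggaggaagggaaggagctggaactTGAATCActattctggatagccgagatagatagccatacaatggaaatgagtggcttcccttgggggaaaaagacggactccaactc
Vegfa, chr17:46032328-46032627, minus strand: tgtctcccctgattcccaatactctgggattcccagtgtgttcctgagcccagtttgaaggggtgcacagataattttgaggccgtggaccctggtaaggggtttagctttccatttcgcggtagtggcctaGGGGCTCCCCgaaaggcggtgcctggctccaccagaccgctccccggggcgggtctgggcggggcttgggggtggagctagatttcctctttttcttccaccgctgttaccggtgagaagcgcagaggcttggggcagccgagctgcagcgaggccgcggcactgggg
The Areg window held the full response element, its first base 61 bases before the start, and a TATA box at 31 bases before it. Of 32851 promoter windows of the same length, 1.79% held TGACGTCA and 13.6% held TATAAA. The shorter TGACG was met 3 times in the Areg window, in 2 cases inside the full element, and in 20.8% of all windows. The Igf1 window held TGAATCA, which matches only the looser AP-1 form (7.81% of all windows held that form). The Vegfa window held an NF-kappaB match (8.46%). Neither of those windows held ACGTG, which 19.6% of all windows held, nor TGACGTCA. The start site of the Igf1 window, 87861111, lies inside the RefSeq gene, which begins upstream at 87858265, and no window at that upstream start was found. RefSeq has a second Vegfa window, chr17:46025114-46025413, not printed here, whose start site is where the tables' location for the gene begins on its strand. It held ACGTG 211 bases and an overlapping TGACG 209 bases before that start. The Pdgfa windows are not printed either. The window with its start site at 138994944 held an NF-kappaB match 49 bases and TGACG 205 bases before that start. The Pdgfa window with its start site at 138994281 held none of the patterns. These matches describe letters and not binding.

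Areg (chromosome 5, 91139599 to 91148432, mm10, plus strand) stood at 4846 normalized counts at 0 h, then 753 at 4 h and then 512 at 24 h, from 5189, 593 and 623 reads. The 0 h library was the high one, and the 95% counting intervals of the 3 levels did not overlap. Areg was 6.44-fold lower (5.91 to 7.02) at 4 h than at 0 h and 1.47-fold lower (1.31 to 1.65) at 24 h than at 4 h. Most of the difference from 0 h was thus seen at 4 h as well as at 24 h. Ereg (chromosome 5, 91074617 to 91093649, plus strand) stood at 5108, 588 and 233 normalized counts at 0, 4 and 24 h. It was 8.69-fold lower (7.90 to 9.58) at 4 h than at 0 h and a further 2.53-fold lower (2.18 to 2.94) at 24 h than at 4 h. By the ratio of 24 h over 0 h, Ereg had the 25th and Areg the 51st lowest ratio of 12472 genes. The gap between the genes is 45.9 kb. Epgn and Btc, which encode the EGF receptor ligands epigen and betacellulin, flank the pair on chromosome 5 in RefSeq and are not listed in the tables.

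Hbegf (chromosome 18, 36504927 to 36515805, minus strand) had the opposite course to its relatives at 4 h. Its level was 81.2 normalized counts at 0 h, then 1015 at 4 h and then 46.0 at 24 h, from 87, 800 and 56 reads. The 4 h library was the high one, 12.5-fold above 0 h (a log2 ratio of 3.64, with an interval of 3.32 to 3.98), and Hbegf ranked 130th highest of 12503 genes in that ratio. Its 24 h level was 22.1-fold lower (16.8 to 29.5) than at 4 h and 1.77-fold lower (1.25 to 2.52) than at 0 h.

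Igf1 (chromosome 10, 87861111 to 87937047, plus strand) and Vegfa (chromosome 17, 46016994 to 46025163, minus strand) were lower at each later time. Igf1 stood at 783 normalized counts at 0 h, then 579 at 4 h and then 252 at 24 h, and Vegfa at 984, 637 and 328. For each gene the 3 counting intervals were apart. Igf1 was 1.35-fold lower (1.20 to 1.52) at 4 h and 3.10-fold lower (2.72 to 3.55) at 24 h than at 0 h. Vegfa was 1.54-fold lower (1.39 to 1.72) at 4 h than at 0 h, and its log2 ratio of 24 h over 0 h was -1.59 (-1.76 to -1.42). The location that the tables give for Vegfa spans 53.1% of the RefSeq gene, from its 3′ end, so if counting followed it the upstream exons were not counted.

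Of the 7, the PDGF genes had the ratios nearest to 1 in both comparisons with 0 h. Pdgfb (chromosome 15, 79995876 to 80014808, minus strand) stood at 602 normalized counts at 0 h, then 532 at 4 h and then 717 at 24 h. The 24 h level was 1.19-fold (1.07 to 1.32) the 0 h level and 1.35-fold (1.20 to 1.52) the 4 h level, but both ratios turned below 1 when libraries were scaled on ribosomal protein genes. The interval of the 4 h level against 0 h, 1.13-fold lower (1.00 to 1.28), reached no difference. Pdgfa (chromosome 5, 138976972 to 138994953, minus strand) rested on 27, 23 and 38 reads, or 25.2, 29.2 and 31.2 normalized counts, and its 3 intervals overlapped. A difference in Pdgfa of the size seen in Igf1 at 24 h against 0 h would lie outside its interval for that ratio, 0.737 to 2.11. The locations given for Pdgfb and Pdgfa span 65.9% and 72.6% of the RefSeq genes and fall short mainly at the upstream end. Upstream exons of both may thus not have been counted.

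**Figure D1:**
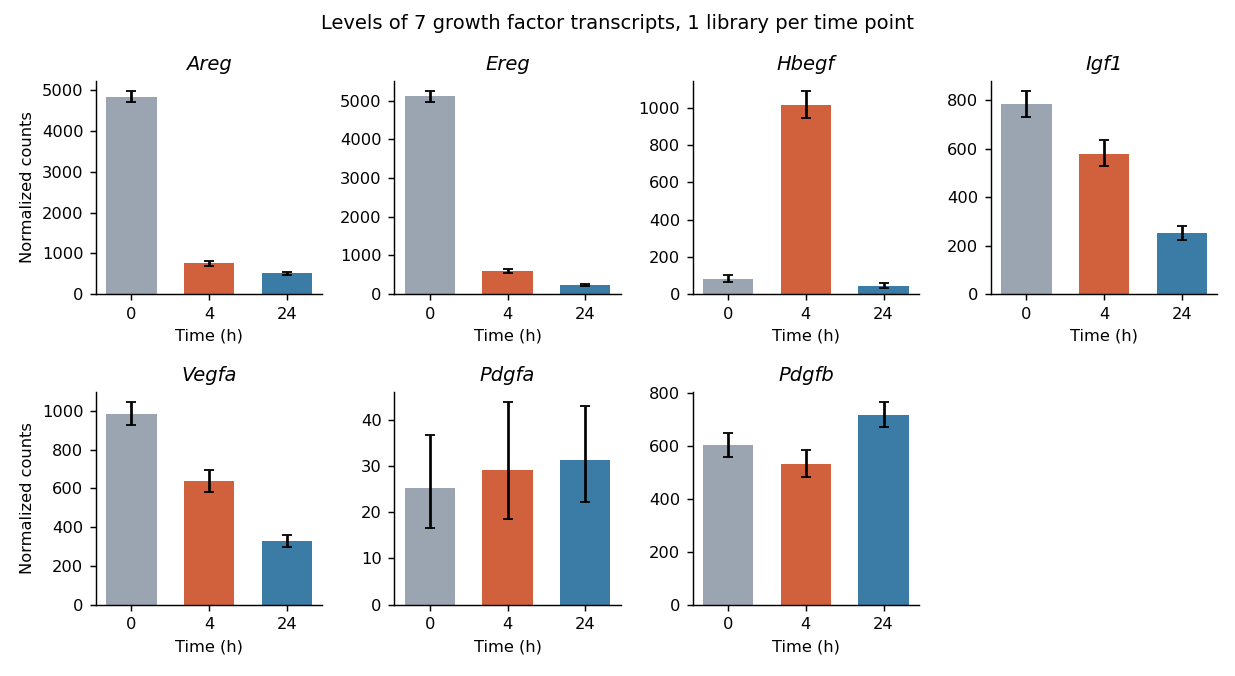
Normalized counts of the 7 growth factor transcripts (y axis, from 0, a scale of its own for each gene) at 0, 4 and 24 h (x axis). Bars are the level in 1 library and lines its 95% Poisson interval, which covers counting error only; Areg and Ereg were highest at 0 h, Hbegf at 4 h, and Pdgfa intervals overlapped.

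By plain ratios, 2 of the 7 were at least 2-fold lower at 4 h than at 0 h (Areg and Ereg) and 1 at least 2-fold higher (Hbegf). Over all 12512 genes, 14.3% were lower and 15.2% higher by that rule. At 24 h against 0 h, 4 were at least 2-fold lower (Areg, Ereg, Igf1 and Vegfa) and 0 higher, where 9.10% and 4.95% of 12481 genes were. At 24 h against 4 h, 3 were lower (Ereg, Hbegf and Igf1) and 0 higher, beside 17.9% and 14.4% of 12684 genes. Since the genes were picked on these same libraries, nothing is read from these counts against the background. The first and second comparison share the 0 h library, the first and last the 4 h library, and the second and last the 24 h library. In the authors' deposited table of 24 h against 0 h, Ereg had a log2 fold change of -0.30 and Areg of -0.38, against plain log2 ratios of -4.46 and -3.24. The same deposited table put Igf1 at -1.04 and Vegfa at -1.02, against plain values of -1.63 and -1.59, so Igf1 and Vegfa lie furthest below 0 there, and Ereg and Areg do by the plain ratio. For 4 h against 0 h the authors' deposited table gave Hbegf 2.37, Areg -1.95 and Ereg -2.18, closer to the plain 3.64, -2.69 and -3.12. With a log2 fold change of at least 1 in the authors' deposited table, 1 was higher and 2 lower at 4 h against 0 h (8.86% and 9.02% of genes), 0 higher and 2 lower at 24 h against 0 h (0.539% and 2.14%), and 0 higher and 1 lower at 24 h against 4 h (7.26% and 10.2%). At a 4-fold plain ratio, 1 was higher and 2 lower at 4 h against 0 h (4.97% and 5.24% of genes). Beyond 4-fold 0 were higher and 2 lower at 24 h against 0 h (0.681% and 1.92%), and 0 higher and 1 lower at 24 h against 4 h (3.84% and 5.79%).

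Around the 2-fold threshold, Igf1 lay just inside it at 24 h against 4 h, 2.29-fold lower, and Vegfa just outside, 1.94-fold lower. Igf1 lay outside it under scaling by total reads (a log2 ratio of -0.87) and by the upper quartile (-0.96), which left 2 of the 7 lower.

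**Figure D2:**
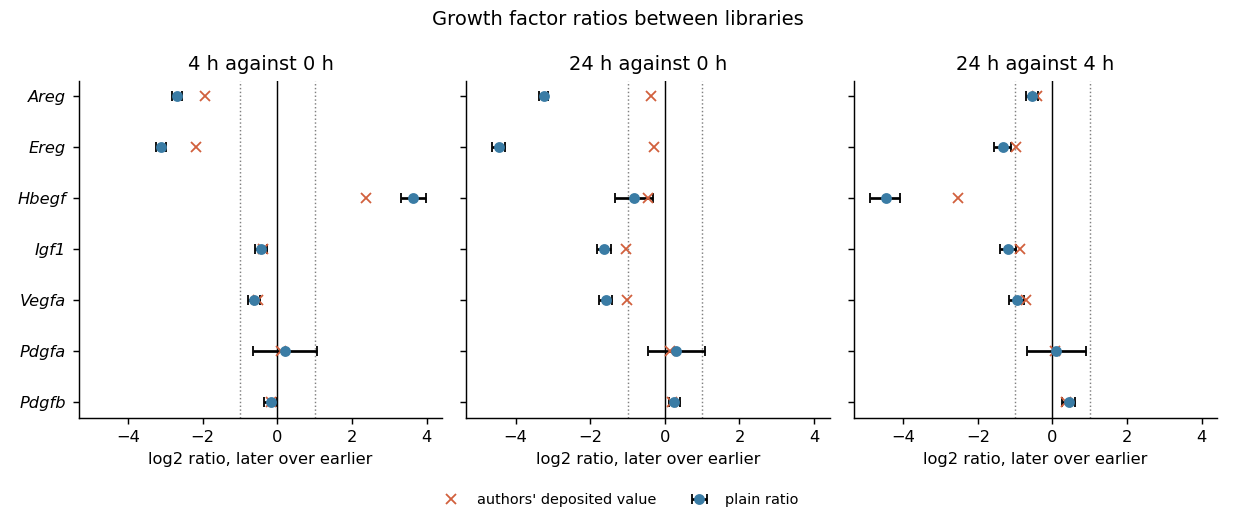
Log2 ratio of the later over the earlier library (x axis) for each growth factor (y axis) in the 3 comparisons, as plain ratios (dots, with 95% counting intervals as lines) and as the authors' deposited log2 fold changes (crosses); dotted lines mark 2-fold. At 24 h against 0 h, Ereg lies at -4.46 by the plain ratio and -0.30 in the authors' deposited table; the small positive Pdgfa and Pdgfb values at 24 h turn negative under scaling on ribosomal protein genes.

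Levels of different genes were compared per kilobase of annotated exon inside the location that the tables give, since longer transcripts yield more reads. At 0 h Areg led with 3988 normalized counts per kilobase, followed by Ereg with 1237, Vegfa with 351, Pdgfb with 151, Igf1 with 103, Pdgfa with 19.9 and Hbegf with 16.8. The last pair did not differ beyond counting error. At 4 h the order per kilobase was Areg at 620, Vegfa at 227, Hbegf at 210, Ereg at 142, Pdgfb at 133, Igf1 at 76.4 and Pdgfa at 23.1. Vegfa and Hbegf overlapped in their counting intervals, as did Ereg and Pdgfb. At 24 h Areg still led with 421 per kilobase, ahead of Pdgfb at 180, Vegfa at 117, Ereg at 56.3, Igf1 at 33.3, Pdgfa at 24.7 and Hbegf at 9.52, with only the neighbours Igf1 and Pdgfa overlapping. The isoforms counted are not known, so a small gap in this order may rest on the length used.

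Besides Areg, Ereg and Hbegf, the listed EGF family ligands were the neuregulins Nrg1, Nrg2 and Nrg4, which bind the related receptors ERBB3 and ERBB4. Of 11 ligands in the list, 6 had a level at 4 h and 0 h, 2 of them at least 2-fold higher at 4 h and 3 lower, with a median log2 ratio of -0.59. The median over all genes was 0.0022 in that comparison, with 15.2% higher and 14.3% lower. Nrg1 joined Hbegf on the higher side, at 12.1 normalized counts at 0 h, then 717 at 4 h and then 20.5 at 24 h, or 59.1-fold (34.3 to 112) at 4 h over 0 h from 565 against 13 reads. Nrg4 went with Areg and Ereg at 4 h, at 575, 190 and 280 normalized counts. Of 5 measured ligands at 24 h against 0 h, 3 were at least 2-fold lower and 0 higher (9.10% and 4.95% of all genes). Their median was -1.04 (all genes -0.0015). Summed per kilobase, the 5 ligands with a level in all 3 libraries came to 5357 at 0 h, then 1147 at 4 h and then 546 at 24 h. Areg and Ereg made up 74.5% and 23.1% of that sum at 0 h, 54.0% and 12.4% at 4 h, and 77.2% and 10.3% at 24 h. Hbegf made up 0.314%, 18.3% and 1.74% at the same times, and Nrg1 0.0436%, 12.0% and 0.724%.

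**Figure D3:**
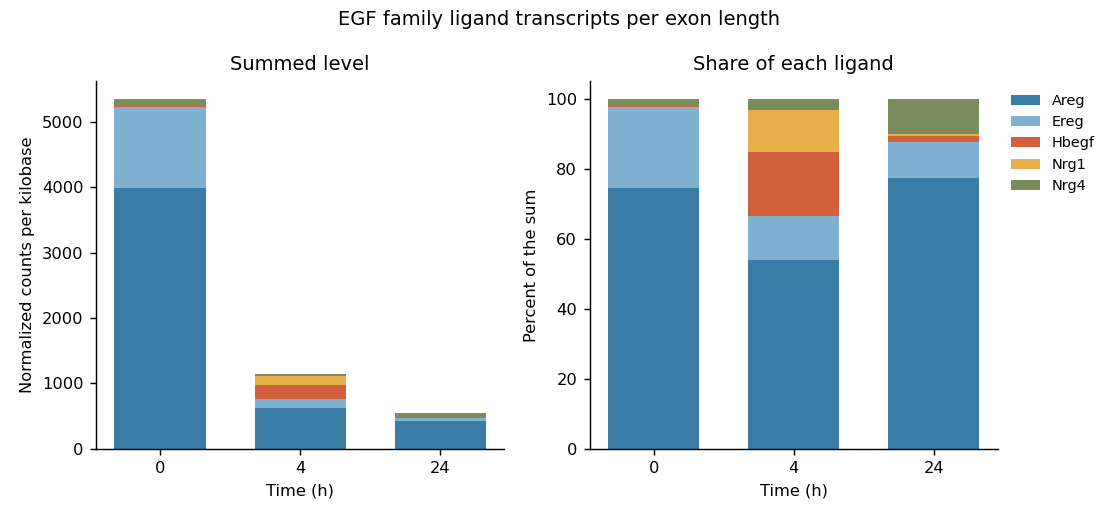
EGF family ligand transcripts at 0, 4 and 24 h (x axis), stacked as normalized counts per kilobase (left y axis) and as percent of their sum (right y axis), 1 library per time point. The sum was 5357, 1147 and 546, and Hbegf with Nrg1 took visible shares, 18.3% and 12.0%, at 4 h.

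The receptors of these ligands had few reads. Egfr had 7, 18 and 6 reads at 0, 4 and 24 h, Erbb2 had 47, 16 and 39, Erbb3 had 50, 41 and 32, and Erbb4 was not listed. Genes that release the ligands were abundant. Adam17, the main sheddase of Areg and Hbegf, stood at 6177 normalized counts at 0 h, then 9727 at 4 h and then 5606 at 24 h, and Adam10 at 4173, 5124 and 3720, neither past 2-fold. Of 10 measured genes of shedding, 3 were at least 2-fold higher at 4 h than at 0 h and 1 lower (median log2 ratio 0.70). The shares over all genes were 15.2% and 14.3%. Adam8, a protease of activated myeloid cells, was 7.54-fold higher (6.91 to 8.23), Timp3, an inhibitor of ADAM17, 3.31-fold higher (2.60 to 4.23), and Adam9 2.77-fold higher (2.67 to 2.88). The member on the lower side was Cd9, a tetraspanin that associates with the Hbegf precursor, 4.05-fold lower (3.98 to 4.13) at 4 h and at 64388, 15885 and 48873 normalized counts through the series. Between 24 h and 4 h, 5 were lower and 1, Cd9, higher (17.9% and 14.4% of all genes). The median was -1.07 (all genes 0.0016).

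Feedback genes of EGF receptor and Ras signalling were mostly high at 4 h. Of 8 measured, 5 were at least 2-fold higher at 4 h than at 0 h and 1 lower (15.2% and 14.3% of all genes). Their median log2 ratio was 1.25. In the step from 4 h to 24 h, 6 were lower and 1 higher at 24 h (17.9% and 14.4% of all genes). Errfi1, an inhibitor of the EGF receptor kinase, stood at 1458, 4981 and 783 normalized counts at 0, 4 and 24 h, and Spred1, an inhibitor of the Ras to ERK pathway, at 515, 2267 and 477. Spry2, another such inhibitor, rested on 15, 58 and 22 reads. Spry1 ran the other way, 5.24-fold lower, on 43 against 306 reads, at 4 h than at 0 h.

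On the IGF axis, Igf1 was lower at 24 h together with Irs2, the docking protein of the insulin and IGF1 receptors. Irs2 stood at 2701 normalized counts at 0 h, then 1974 at 4 h and then 572 at 24 h, 4.72-fold lower (4.35 to 5.14) at 24 h than at 0 h. Of 5 measured ligand and receptor genes, 2 were at least 2-fold lower at 24 h than at 0 h, with 0 higher (median -0.86). The shares over all genes were 9.10% and 4.95%. Igf1r, the receptor, was 2.28-fold higher (1.91 to 2.74) at 4 h than at 0 h, at 184, 420 and 179 normalized counts through the series. Binding proteins hold IGF1 outside the cell and set its access to the receptor. Of 10 in the list 5 were measured, and 3 were at least 2-fold higher at 24 h than at 0 h and 0 lower (median 1.15), where 4.95% of all genes were higher. Scaling on ribosomal protein genes, an alternative added after the values were seen, left 1 of the 3, Igfbp6, since Igfbp4 and Igfbp7 came to log2 ratios of 0.65 and 0.94. Between 24 h and 4 h, 0 were higher and 2 lower (median -0.59), beside 14.4% and 17.9% of all genes. Igfbp7 stood at 51.4, 96.5 and 141 normalized counts, Igfbp4 at 82.2, 141 and 184, and Igfbp6 at 14.9, 179 and 56.7. Igfbp6 rested on 16, 141 and 69 reads. Igfbp5 stood at 13.1, 35.5 and 12.3 and Igfbp3 at 11.2, 19.0 and 12.3, each on at most 28 reads. Of stromal markers, 8 of 10 fibroblast and smooth muscle genes were listed, none at 0, with summed levels of 513, 1051 and 636 normalized counts at 0, 4 and 24 h. Their part in the binding protein levels was not tested.

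On the VEGF axis, Vegfa and its receptor gene Flt1 were both lower at each later time. Flt1, which on myeloid cells responds to VEGFA and to placental growth factor, stood at 6327 normalized counts at 0 h, then 2734 at 4 h and then 995 at 24 h, 6.36-fold lower (5.98 to 6.76) at 24 h than at 0 h. Nrp2, a co-receptor, was highest at 4 h, at 5885, 12620 and 1776, and Nrp1 stood at 3383, 3384 and 2806. The other ligands did not follow Vegfa. Vegfb, linked to fatty acid handling in vessels, was lowest at 4 h, at 352, 91.4 and 324 normalized counts. Vegfc, the lymphatic growth factor, was highest at 24 h, at 96.2, 97.7 and 217, or 2.26-fold above 0 h (1.79 to 2.86). Scaling on ribosomal protein genes, which shifts log2 ratios of 24 h over 0 h by -0.52, takes Vegfc below 2-fold. Of 4 measured VEGF ligands, 1 was at least 2-fold higher and 1 lower at 24 h than at 0 h, with a median of 0.11. The shares over all genes were 4.95% and 9.10%.

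VEGFA is a classic target of the hypoxia-inducible factors, and the list of hypoxia genes was mixed at 4 h. Hif1a, which encodes the inducible subunit, stood at 2655 normalized counts at 0 h, then 10053 at 4 h and then 1993 at 24 h. At 4 h against 0 h, 4 of 14 genes were at least 2-fold higher and 1 lower (median 0.09), beside 15.2% and 14.3% of genes. The glucose transporter gene Slc2a1 was 3.85-fold higher (3.62 to 4.10) at 4 h, and Ndrg1, a hypoxia-responsive gene, 7.15-fold higher (6.43 to 7.97). Pdk1, which encodes an inhibitor of pyruvate dehydrogenase, was 3.65-fold lower (3.17 to 4.21). Vegfa was 1.54-fold lower in the same comparison. Whether its level and that of Hif1a are linked here was not tested.

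Among PDGF ligands, Pdgfc had the wide difference that Pdgfa and Pdgfb lacked. It stood at 930 normalized counts at 0 h, then 59.7 at 4 h and then 535 at 24 h, 15.6-fold lower (11.6 to 21.4) at 4 h than at 0 h and 8.97-fold higher (6.66 to 12.3) at 24 h than at 4 h. PDGF-CC is a ligand of the alpha receptor that is cleaved outside the cell, by tissue plasminogen activator among others. Plat, the gene of that activator, stood at 112, 116 and 9.04 normalized counts, from 120, 91 and 11 reads. Furin, a protease that trims PDGF precursors inside the cell, stood at 9564, 7645 and 5149 and passed 2-fold in none of the 3 comparisons. Pdgfra and Pdgfrb had 38 to 85 reads in each library, and of 6 measured receptor and processing genes 0 were at least 2-fold apart at 4 h against 0 h. Platelets and endothelium are further sources of PDGF B chain. The platelet chemokine gene Pf4, which is also in the list of interstitial macrophage markers, stood at 187, 85.0 and 401 normalized counts. Of 10 endothelial markers 5 were at least 2-fold higher at 24 h than at 0 h and 1 lower (4.95% and 9.10% of genes). Of 8 platelet markers 4 had a level in all 3 libraries, summing to 440, 336 and 624, and the 10 endothelial markers summed to 4291, 2298 and 3344, with none of either at 0. Pf4 and Itgb3 (202, 213 and 188) made up most of the platelet sum, and the others in it had at most 32 reads in any library. Vwf, also a platelet gene, made up most of the endothelial sum at 0 h (3292, 564 and 1533), and the other 9 summed to 999, 1734 and 1811. Their part in the Pdgfb level was not tested.

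**Figure D4:**
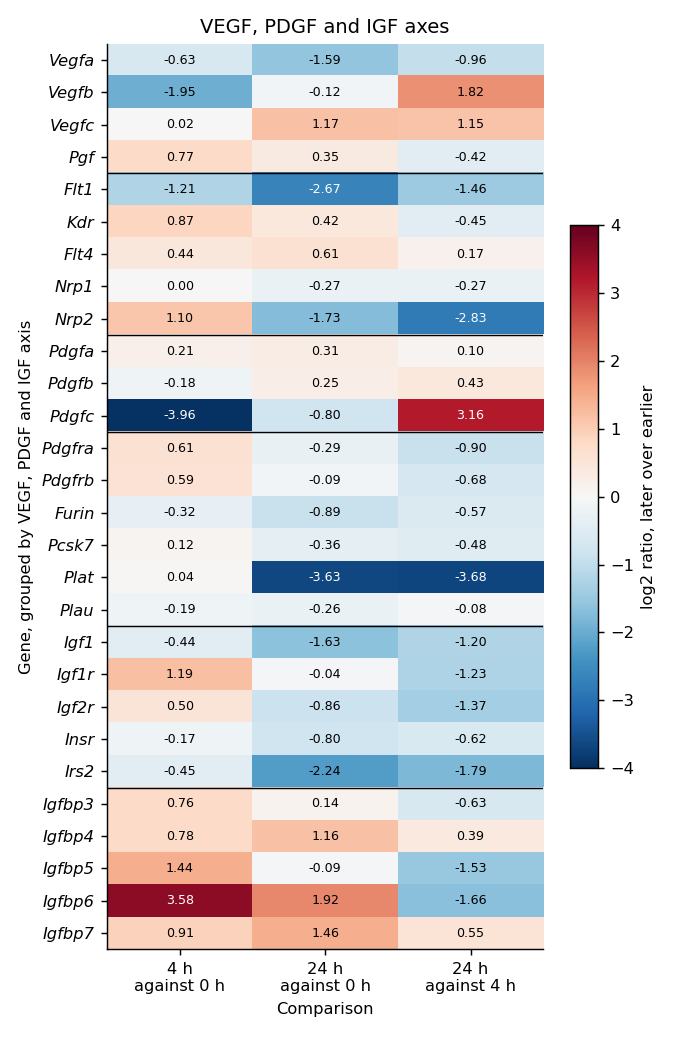
Log2 ratios of the later over the earlier library (colour and number in each cell) for VEGF, PDGF and IGF genes (rows) in the 3 comparisons (columns), 1 library per time point. Vegfa with Flt1, and Igf1 with Irs2, are negative at 24 h against 0 h, and Pdgfc has the widest ratio at 4 h against 0 h, -3.96; positive values at 24 h below 0.52 turn negative under scaling on ribosomal protein genes.

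Genes with a course most like each growth factor were found by distance on the plane of log2 ratios of 4 h over 0 h and 24 h over 0 h, over 3 libraries and 9241 genes averaging 100 normalized counts or more. Areg and Ereg were 1.29 log2 units apart. No gene of the 9241 was nearer to Ereg than Areg was, and 11 were nearer to Areg than Ereg was. After Areg, Ereg was nearest to Mical3 (531, 62.2 and 59.2 normalized counts at 0, 4 and 24 h), at a distance of 1.31, then to Kcnk5 and Hr. For Areg the nearest were Mical3 at 0.40, Kcnk5 at 0.47 and Cit at 0.64. Hbegf was nearest to Ptgs2, the inducible cyclooxygenase, at 0.28 (3000, 32744 and 1993 normalized counts), then to the coagulation genes F5 at 0.31 and F3, encoding tissue factor, at 0.32. Igf1 and Vegfa were 0.20 apart, with 10 genes closer to Igf1 and 16 closer to Vegfa. The nearest to Igf1 were Slc41a2, Itpr2 and Plxna1, at 0.06 to 0.11, and to Vegfa they were Fam129a, Vgll4 and Igsf3, at 0.04 to 0.09. Pdgfa and Pdgfb were 0.39 apart, with 1543 genes closer to Pdgfa and 1711 closer to Pdgfb. Their nearest genes were Zfp326, Sc4mol and Slc25a28 for Pdgfa and Irf3, Armc7 and Scamp4 for Pdgfb, all within 0.02.

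**Figure D5:**
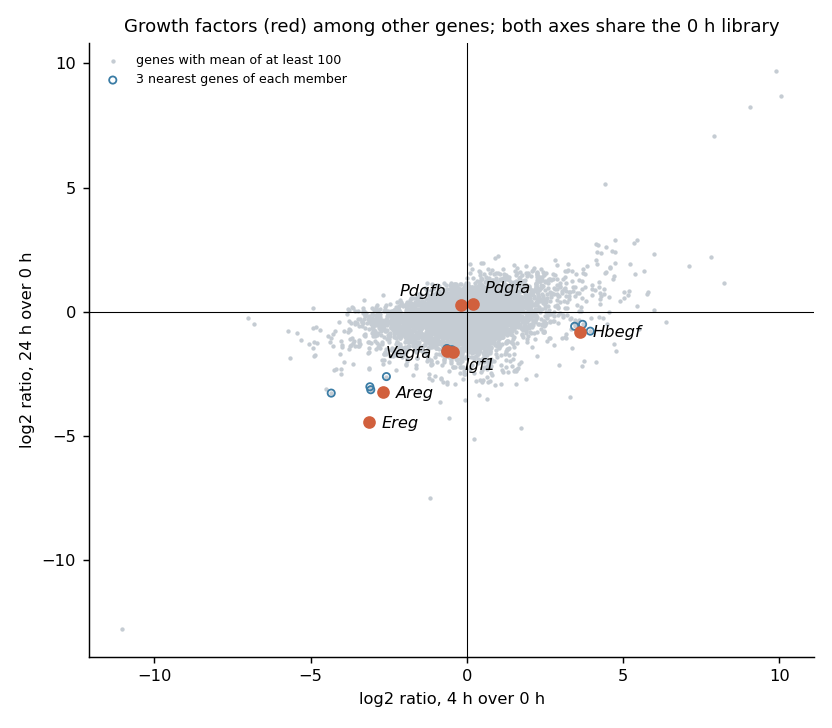
Log2 ratio of 4 h over 0 h (x axis) against 24 h over 0 h (y axis), with a pseudocount of 1, for genes averaging 100 normalized counts or more (grey), the 3 nearest genes of each growth factor (blue rings) and the 7 growth factors (red). Areg and Ereg lie at the lower left, Hbegf at the right and below 0 on the y axis, Igf1 beside Vegfa below the centre and the PDGF genes at the centre, where the small 24 h values change sign under scaling on ribosomal protein genes.

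Early response genes, which enzymatic digestion of tissue can also raise, were mixed, and their part in the Areg and Ereg levels was not tested. All 18 were listed, none at 0, and they summed to 340064 normalized counts at 0 h, then 385850 at 4 h and then 298795 at 24 h. At 4 h against 0 h, 4 of the 18 were at least 2-fold higher and 2 lower (15.2% and 14.3% of all genes). The median log2 ratio was 0.40. At 24 h against 0 h, 5 were lower and 2 higher (9.10% and 4.95% of all genes), with a median of -0.29. The 2 higher were Hspa1a, at 932, 2457 and 2115 normalized counts at 0, 4 and 24 h, and Hspa1b, at 929, 2031 and 2309. Scaling on ribosomal protein genes takes both below 2-fold. The 5 lower genes were all highest at 0 h. They were Egr1 at 32174, 21102 and 9401 normalized counts, Fosb at 37847, 11851 and 16617, Egr2 at 10187, 5720 and 4408, Nr4a3 at 2745, 1847 and 138, and Egr3 at 191, 59.7 and 29.6. The most abundant were Zfp36 at 59595, 88223 and 43157 normalized counts, Nr4a1 at 41529, 58379 and 43107 and Fos at 44768, 36533 and 59555. Of 12 genes of cAMP signalling and CREB targets, 3 were at least 2-fold higher and 1 lower at 4 h than at 0 h. The shares over all genes were 15.2% and 14.3%. At 24 h against 0 h, 4 of the 12 were lower and 0 higher (median -0.50), beside 9.10% and 4.95% of genes. Among the 12, Crebbp, the CREB coactivator, stood at 1409, 2181 and 306 normalized counts, and Pde4b, a cAMP phosphodiesterase, at 10750, 27240 and 3891. All 14 epithelial markers were listed, none at 0, and summed to 16107, 18534 and 16744 normalized counts. At 4 h against 0 h, 6 of the 14 were at least 2-fold higher and 2 lower (15.2% and 14.3% of all genes). Their median log2 ratio was 0.18. Sftpc led them at 7817, 6079 and 9649, and the club cell gene Scgb1a1 stood at 90.6, 3977 and 105. The 2 lower were Epcam at 953, 159 and 334 and Cdh1 at 2179, 710 and 916. The part of epithelial RNA in the Hbegf and Nrg1 levels at 4 h was not tested.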

How the data were processed

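The authors deposited 3 tables, each comparing 2 libraries. Each deposited signal value is a gene's read count over the size factor its library had within the pair (DESeq2, no version, and build mm10, per the submitters' processing notes; aligner, counter, strand setting and annotation not given in the sources used here). Whole reads were recovered for 100% of values (tolerance 0.001 reads). The deposited log2 fold changes of the authors are smaller in size than plain ratios of the same reads for all 7 growth factors in all 3 comparisons. In the 24 h against 0 h table, the first column is headed 4 h; it holds the 0 h reads for 12310 of 12310 genes found in both tables, yet its heading is not that of the 0 h sample, so it was given to no sample, and 0 h levels come from the other table. Another 6 columns of per-sample averages were not used.

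Levels are reads over size factors from medians of ratios (1.07 at 0 h, 0.788 at 4 h, 1.22 at 24 h). Ratio intervals are exact Clopper-Pearson intervals, and reads are not independent molecules. Log2 medians of lists used a pseudocount of 1. Coordinates count from 1. Exon lengths come from GENCODE vM21. With 1 library per time point, no count model was fitted and no p-value is given. On simulated counts of 12481 genes, a log2 change of 2 was recovered in 100% of 200 genes in each comparison; these counts held counting error only, so this checks the arithmetic and not variation between mice or libraries. Python 3.11.15, SciPy 1.17.1 and pandas 2.3.3 were used.

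The genes and the 23 lists (251 symbols, 214 listed) were chosen with earlier results of these data known. All 7 growth factors are named, with up to 3 list genes furthest up and down past 2-fold per comparison, up to 3 most abundant genes of marker and early response lists, and the 3 nearest genes. Genes named outside this rule, after their values were seen, were Adam10, Adam17, Nrg2, Erbb3, Nrp1, Furin, Pdgfra, Pdgfrb, Scgb1a1, Epcam, Cdh1, Igfbp3, Egr1, Egr2, Egr3, Fosb, Nr4a3, Hspa1a, Hspa1b, Ccr2, Tgfb1, Hgf, Xist, Ddx3y, Csf1r, Cd68, Itgam, Fcgr1 and Lyz2. Other scalings, folds, thresholds, pseudocounts and filters were tried.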

Additional observations from a re-analysis of the deposited data

How the results depend on the processing

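The count of growth factors at least 2-fold lower at 24 h against 0 h was 4, and it was 2 by the authors' deposited log2 fold change and 2 at a 4-fold threshold. At 24 h against 4 h it was 3, and it was 5 with ribosomal protein scaling, 1 by the authors' deposited log2 fold change and 1 at 4-fold. It was 2 under scaling by total reads and by the upper quartile, where Igf1 was no longer past 2-fold. The counts otherwise kept within 1.5 times under scaling by total reads, upper quartile and, where both columns had a sample, the authors' values, at 1.5-fold, with a pseudocount of 10 and among genes averaging 100 normalized counts or more. The authors' scaling was not run at 24 h against 0 h, where a column had no sample. Of 119 growth factor ratios under alternatives, 40 left the counting interval and 4 changed sign, all of them Pdgfa and Pdgfb ratios at 24 h with ribosomal scaling, which gave log2 ratios of -0.21 and -0.26 against 0 h and -0.42 and -0.09 against 4 h. That scaling shifts every log2 ratio by -0.52 in both comparisons. Total reads shifted them by -0.16 for 4 h over 0 h, by 0.17 for 24 h over 0 h and by 0.32 for 24 h over 4 h. No paired analysis was possible because each time point has 1 library, and none could be left out. Few reads stand behind Pdgfa, Egfr, Nrg2 (11 at 0 h and 11 at 4 h, with no 24 h level), Nrg1 and Spry2 at 0 h and Plat at 24 h.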

Other observations

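Other lung repair ligands were measured in 15 of 23 cases. At 24 h against 0 h, 5 were at least 2-fold lower and 0 higher (median log2 ratio -0.62), beside 9.10% and 4.95% of genes. At 4 h against 0 h, 3 were lower and 2 higher (median -0.38), beside 14.3% and 15.2% of genes. Inhba, which encodes the activin A subunit, stood at 176.5 normalized counts at 0 h, then 3132 at 4 h and then 42.7 at 24 h, 17.7-fold higher (15.3 to 20.7) at 4 h than at 0 h and 73.3-fold lower (55.7 to 98.4) at 24 h than at 4 h. Osm, encoding oncostatin M, was also highest at 4 h, at 11101, 23628 and 6336. Lif, a relative of oncostatin M, was lower at each later time, at 1590, 1033 and 222, and was 7.17-fold lower (6.30 to 8.18) at 24 h than at 0 h. Tgfb2 stood at 146, 138 and 24.7 normalized counts from 156, 109 and 30 reads, whereas Tgfb1 stood at 10035, 10578 and 8493. Fgf1 was 5.15-fold lower (3.48 to 7.89) at 4 h than at 0 h, on 29 against 203 reads. Hgf, the ligand of the epithelial receptor MET, stood at 356, 307 and 231 normalized counts and passed 2-fold in none of the 3 comparisons.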
